A study of Mus musculus with 15 samples.

Results

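Killer cell lectin-like receptors are surface proteins of natural killer (NK) cells and activated T cells, and 6 of their genes were followed here in T cells of mice with acute graft-versus-host disease (aGvHD). The members Klrg1, Klrk1, Klrc1, Klrc2, Klrd1 and Klre1 were chosen by symbol from the 4567 genes listed in any of 4 deposited tables. Of the 6, 5 have a row, and Klre1 is in none of the tables and has no values here. Klrg1, Klrk1, Klrc1 and Klrc2 are each listed in 3 tables, and Klrd1 is listed only for CD4 cells from mice with aGvHD against CD4 control cells. All 5 passed the filter on low counts in every comparison.

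Gene expression was measured by RNA sequencing in 15 libraries, 3 from each of 5 sorted populations. Splenic T cells of strain C57Bl6 had been transferred, with bone marrow cells, into allogeneic Balb/C recipients irradiated with 8 Gy. The day 7 cells were sorted from the spleens of these recipients. CD8 cells were sorted into a Flica-positive and a Flica-negative population and CD4 cells into a Flica-negative one. The mouse antibodies listed in the paper include no marker of donor against recipient, and its supplement shows Flica-positive recipient cells. The share of recipient cells in the sorts was not tested. Flica fluoresces in cells in which caspase-1 is active. The control cells were Flica-negative CD4 and CD8 T cells of untreated C57Bl6 mice on day 0. The paper's methods give donors and recipients as 6 to 8 weeks old, while figure legends for this transfer give recipients as 5 to 6 weeks old. Each sort of aGvHD cells drew on several mice, no Flica-positive CD4 library was made, and the controls received no transfer, so transfer, the irradiated host and alloreactivity cannot be told apart. The labels call the libraries of a group biological replicates.

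CD94, encoded by Klrd1, reaches the cell surface paired with an NKG2 chain. With NKG2A, encoded by Klrc1, it forms an inhibitory receptor, and with NKG2C, encoded by Klrc2, an activating receptor that signals through the adaptor DAP12, and both bind the nonclassical MHC molecule Qa-1. NKG2D, encoded by Klrk1, pairs with itself, binds stress-induced ligands of the RAE-1 and H60 families and is a costimulatory receptor of CD8 T cells. KLRG1, encoded by Klrg1, is an inhibitory receptor for cadherins and marks T cells late in effector differentiation. KLRE1 is a further member of the family on NK cells.

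A normalized count here is a read count divided by the size factor of its library, as recovered from the mean of each gene in the deposited tables. The tables list only genes that the authors had called changed in at least 1 comparison of these same libraries, so a call on a listed gene is not independent of that selection, and the share of all listed genes called is given beside the count of members. The total over listed genes, 2143579 to 11046043 counts per library, is not the depth. Of 14 T cell markers only Cd8a is listed, with 12817 to 21642 normalized counts in CD8 control and CD8 Flica-negative libraries, 9348 to 11492 in CD8 Flica-positive libraries and at most 116.5 in CD4 libraries. The other T cell markers could not be checked. The summed level of 10 neutrophil markers was 176247 to 327241 normalized counts in CD8 Flica-positive libraries, against 10303 to 15973 in CD8 Flica-negative, 2304 to 6487 in CD4 Flica-negative and 46.4 to 112.8 in all control libraries. It moved with every comparison of day 7 against control below, and its part in the results was not tested. In bulk samples, fewer cells that express a gene and less RNA per cell cannot be told apart.

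The members lie on mouse chromosome 6 (GRCm38, GENCODE M21), and 5 of the 6 lie close together. Klre1 spans 129577905 to 129585827 on the plus strand and Klrd1 spans 129591782 to 129598775 on the plus strand. Klrk1 follows at 129610323 to 129623864, Klrc2 at 129647496 to 129660689 and Klrc1 at 129666015 to 129678973, all on the minus strand. Klrg1 lies apart at 122270596 to 122282882 on the minus strand. No exon of a member overlaps an exon of another gene. Of the 150-base stretches of Klrc1 transcripts, 4.32% also occur in Klrc2, and 2.48% of those of Klrc2 occur in Klrc1 or Klrc3, so reads from these stretches cannot be assigned to 1 gene. Klrg1, Klrk1 and Klrd1 share none with another Klr gene.

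Klrk1 and Klrc1 rose in both lineages, as did Klrc2, which lies between them. The 250 bases before the start sites of Klrk1 and Klrc1 are shown as examples. They are RefSeq sequences of build GRCm38.p6 and read 5′ to 3′ on the minus strand, from chr6:129623865-129624114 for Klrk1 and chr6:129678974-129679223 for Klrc1. Capitals mark matches to the RUNX core letters TGTGGT or their reverse complement ACCACA.
Klrk1: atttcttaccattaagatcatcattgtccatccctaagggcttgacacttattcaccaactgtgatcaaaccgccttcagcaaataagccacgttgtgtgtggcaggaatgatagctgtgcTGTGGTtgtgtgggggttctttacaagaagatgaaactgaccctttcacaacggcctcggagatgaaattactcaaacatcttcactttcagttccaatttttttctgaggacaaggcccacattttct
Klrc1: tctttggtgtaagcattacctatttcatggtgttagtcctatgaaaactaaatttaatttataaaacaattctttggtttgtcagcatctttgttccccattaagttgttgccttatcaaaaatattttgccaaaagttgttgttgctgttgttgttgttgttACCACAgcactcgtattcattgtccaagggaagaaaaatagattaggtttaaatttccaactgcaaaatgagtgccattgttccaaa
Each window holds 1 match, on opposite strands. The letters were searched on both strands and occur in 14.0% of 32851 promoter windows of the same length. RUNX letters were shortened from TGTGGTT, which 4.40% of windows hold, after the sequences had been read. The 2 Klrc2 windows overlap and hold the same 2 matches. The Klre1 windows also overlap, and 1 holds a match and the other none. The T-box letters GGTGTGA, found in 3.33% of windows, occur in no window of a member. A match of letters is a description of the sequence and does not show that a factor binds there. Klrg1 and Klrd1 have no entry in the promoter table.

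Klrc1 was the member with the most reads in all 9 day 7 libraries, and it had at most 141 reads in any control library. CD8 control libraries had 67.8, 126.3 and 135.6 normalized counts of Klrc1, CD8 Flica-negative libraries had 9734, 8110 and 7227, and CD8 Flica-positive libraries had 6439, 6153 and 4977. CD4 control libraries had 23.4, 20.3 and 77.4, and CD4 Flica-negative libraries had 2638, 2842 and 2141. Every day 7 library stood above every control library, and the 5 groups did not overlap except for the controls, where CD4 control replicate 3 lay above CD8 control replicate 1. That replicate held 87 Klrc1 reads, against 21 in each of the other CD4 control libraries.

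Klrc2 followed the same order at a lower level. Its normalized counts were 21.1, 101.2 and 77.9 in CD8 control, 1193, 1435 and 1037 in CD8 Flica-negative and 791, 879 and 719 in CD8 Flica-positive libraries. In CD4 cells they were 31.3, 34.8 and 0 in control and 535, 614 and 379 in Flica-negative libraries. The 0 belongs to CD4 control replicate 3, the library with the high Klrc1 count. No day 7 library overlapped a control library.

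Klrd1, the partner chain of both, had a different pattern, since CD8 control cells already held it at the level of day 7 cells. Its normalized counts were 2062, 1635 and 1805 in CD8 control, 2995, 2531 and 1867 in CD8 Flica-negative and 1919, 1572 and 1130 in CD8 Flica-positive libraries, and these 3 groups overlapped. CD4 control libraries stood apart with 206.6, 137.3 and 85.4, and CD4 Flica-negative libraries had 1874, 1688 and 1494.

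Klrk1 was present in CD8 control cells and higher on day 7. Its normalized counts were 337, 444 and 755 in CD8 control, 4189, 3073 and 3036 in CD8 Flica-negative and 2869, 2172 and 2613 in CD8 Flica-positive libraries. CD4 control libraries had 41.3, 65.8 and 50.7, and CD4 Flica-negative libraries had 829, 694 and 513, which overlapped CD8 control libraries. Within each lineage, day 7 and control libraries did not overlap.

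Klrg1 was the only member with a lower level in CD8 than in CD4 control cells. CD8 control libraries had 2.64, 0 and 11.5 normalized counts, from 3, 0 and 12 reads, and CD4 control libraries had 74.8, 57.1 and 28.5. On day 7 the order of the lineages was the opposite, with 443, 637 and 572 in CD8 Flica-negative, 406, 579 and 381 in CD8 Flica-positive and 234, 313 and 220 in CD4 Flica-negative libraries.

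**Figure D1:**
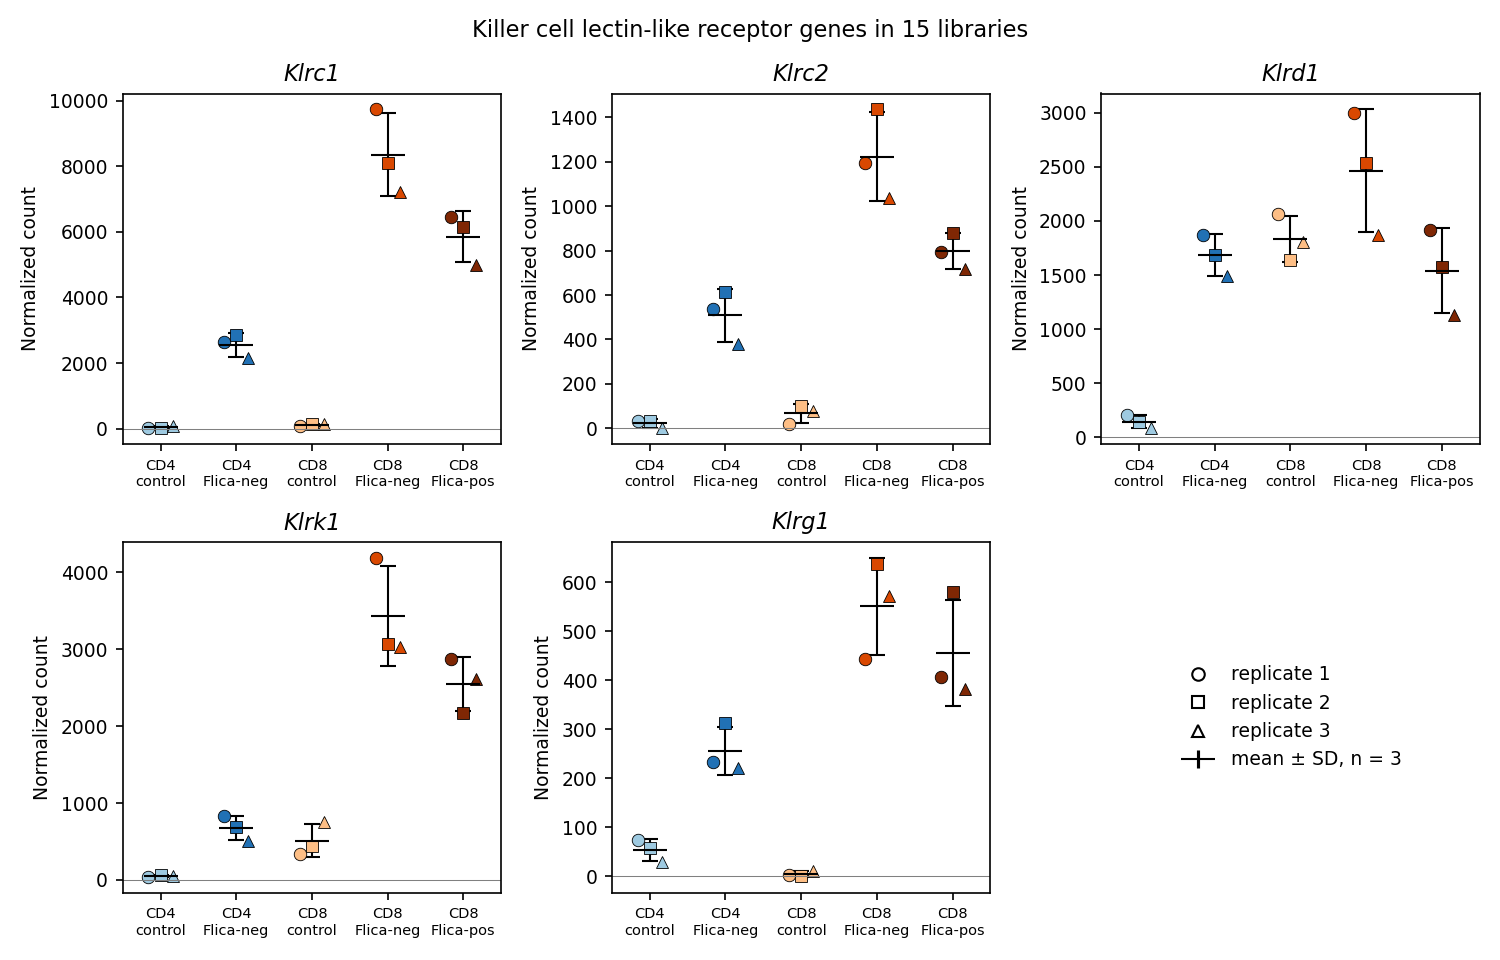
Normalized counts (y axis, linear from 0) of the 5 members in each of the 15 libraries, by group (x axis), with a symbol for each replicate and bars for mean ± SD (n = 3). Within each lineage Klrc1, Klrc2, Klrk1 and Klrg1 are higher on day 7 than in control cells without overlap, while Klrd1 is low only in CD4 control cells.

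In CD8 cells, Flica-negative day 7 cells were compared with control cells to ask what differed in day 7 cells without active caspase-1. Klrc1, Klrc2, Klrk1 and Klrg1 rose and Klrd1 did not pass the test. The median log2 fold change of the 5 members was 4.19, against 0.50 over all 3559 genes tested. Klrc1 rose from 109.9 ± 36.7 to 8357 ± 1272 normalized counts (SD, n = 3), a log2 fold change of 6.25 (SE 0.30, edgeR adjusted p = 3.7e-07). For Klrc2 the log2 fold change was 4.19 (SE 0.50, edgeR adjusted p = 6.4e-05). Klrk1 rose by 2.74 on the log2 scale (SE 0.31, edgeR adjusted p = 4.3e-05). Klrg1 rose from 4.73 ± 6.05 to 551 ± 98.8 normalized counts (SD, n = 3), a log2 fold change of 6.86 (SE 0.74, edgeR adjusted p = 3.5e-05). Klrd1 was at 1834 ± 215 in control and 2464 ± 567 in Flica-negative cells, with a log2 fold change of 0.43 (SE 0.20, edgeR adjusted p = 0.080). Thus 4 of 5 members were called higher, where 42.3% of all tested genes were called higher and 33.5% lower, 75.8% in all. These 4 had been listed by the authors for this same comparison, so their calls and the median are not independent of that selection. Klrd1 passed the test without CD8 Flica-negative replicate 3 (log2 fold change 0.59, edgeR adjusted p = 0.017). Scaling by TMM over the listed genes, with a median over all tested genes moved by -0.43, put Klrd1 at -0.02.

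In CD4 cells all 5 members rose between control and Flica-negative day 7 cells. Their median log2 fold change was 3.68, against 0.07 over all 3445 genes tested. Klrc1 had the largest difference of the members, from 40.4 ± 32.1 to 2540 ± 361 normalized counts (SD, n = 3), a log2 fold change of 5.95 (SE 0.46, edgeR adjusted p = 2.2e-06). Klrd1 rose from 143.1 ± 60.8 to 1685 ± 190.0, a log2 fold change of 3.56 (SE 0.31, edgeR adjusted p = 4.2e-06). Klrc2 rose by 4.55 (SE 0.77, edgeR adjusted p = 5.0e-04) and Klrk1 by 3.68 (SE 0.29, edgeR adjusted p = 2.5e-06) on the log2 scale. The smallest of these differences was that of Klrg1, with a log2 fold change of 2.26 (SE 0.40, edgeR adjusted p = 6.4e-04). Over all tested genes 37.8% were called higher and 30.9% lower, 68.8% in all. All 5 calls held in each alternative, leaving out single libraries included. The authors had listed all 5 for this same comparison of these libraries, Klrd1 for no other. The calls, their median and their stability follow in part from that selection and are not independent evidence of a rise. Without CD4 control replicate 3 the log2 fold change of Klrc1 was 6.86.

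Whether the lineages changed by different amounts was tested by the interaction of lineage and day in the 12 Flica-negative libraries. Klrg1 rose more in CD8 than in CD4 cells, by 4.60 on the log2 scale (SE 0.81, edgeR adjusted p = 0.0013), and the change of Klrd1 was lower in CD8 cells, by -3.14 (SE 0.37, edgeR adjusted p = 3.0e-05). Both differences were called under all alternatives run, over which they ranged from 4.02 to 6.31 and from -3.49 to -2.87. For this term the replicate block joined control and day 7 libraries of a lineage by number. Pairing of CD4 with CD8 libraries within a day was not fitted. Over all 4145 genes tested, 5.14% had a higher and 6.18% a lower change in CD8 cells, 11.3% in all. The difference for Klrk1 was -0.94 (SE 0.40, edgeR adjusted p = 0.15). For Klrc1 and Klrc2 it was 0.30 (SE 0.51) and -0.36 (SE 0.88), with edgeR adjusted p = 0.77 and 0.86, and these changed sign without CD4 control replicate 3, to -0.61 and 0.26. At this spread, no difference between lineages in the change of these 3 genes was detected.

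The 2 controls show where those differences started. Klrd1 was higher in CD8 than in CD4 control cells by 3.69 on the log2 scale (SE 0.28, edgeR adjusted p = 1.5e-06), and Klrk1 by 3.28 (SE 0.33, edgeR adjusted p = 1.5e-05). Klrg1 was lower in CD8 control cells by -3.48 (SE 1.00, edgeR adjusted p = 0.033), a call that rested on few reads and was lost with edgeR adjusted p between 0.057 and 0.17 when CD4 control replicate 1 or 2 or CD8 control replicate 1 or 2 was left out. Klrc1 (1.43, SE 0.53, edgeR adjusted p = 0.099) and Klrc2 (1.60, SE 0.96, edgeR adjusted p = 0.35) did not pass the test. Without CD4 control replicate 3, Klrc1 was called higher in CD8 control cells (log2 fold change 2.32, edgeR adjusted p = 0.0089). Of all tested genes, 7.14% were called higher and 8.44% lower in CD8 control cells, 15.6% in all.

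On day 7 each member was higher in CD8 than in CD4 Flica-negative cells, where 16.4% of all tested genes were called higher and 13.5% lower, 30.0% in all. Klrk1 differed most, by 2.34 on the log2 scale (SE 0.21, edgeR adjusted p = 1.6e-05), followed by Klrc1 with 1.72 (SE 0.16, edgeR adjusted p = 1.6e-05). Klrc2 was higher by 1.26 (SE 0.22, edgeR adjusted p = 0.0016) and Klrg1 by 1.11 (SE 0.25, edgeR adjusted p = 0.0064). Klrd1 was higher by 0.55 (SE 0.19, edgeR adjusted p = 0.047). The Klrd1 call was lost with TMM scaling (edgeR adjusted p = 0.16) and when any library but CD8 Flica-negative replicate 3 was left out (edgeR adjusted p between 0.067 and 0.15). In a fit of all 15 libraries only Klrk1 and Klrc1 passed.

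CD8 Flica-positive cells, which have active caspase-1, were set against the same CD8 control libraries, so the 2 CD8 comparisons with control share those libraries. Klrc1, Klrc2, Klrk1 and Klrg1 were higher than in control cells. The authors had listed these 4 for this comparison too, so their calls are not independent of that selection. Klrc1 averaged 5856 ± 775 normalized counts (SD, n = 3), a log2 fold change of 5.74 (SE 0.33, edgeR adjusted p = 5.9e-06). Klrg1 averaged 455 ± 108, with 6.58 (SE 0.97, edgeR adjusted p = 4.5e-04), Klrc2 796 ± 80.5, with 3.58 (SE 0.55, edgeR adjusted p = 5.5e-04), and Klrk1 2551 ± 353, with 2.32 (SE 0.32, edgeR adjusted p = 3.1e-04). Klrd1 averaged 1540 ± 395 and did not pass (log2 fold change -0.25, SE 0.24, edgeR adjusted p = 0.34). These 4 of 5 members stand beside 52.0% of all 3696 tested genes called higher and 23.3% lower, 75.3% in all, and the median log2 fold change was 3.58 for the members and 2.08 for all tested genes. Of the calls over all genes, 1923 were higher and 861 lower, and with TMM scaling 1066 were higher and 1340 lower. With that scaling the median of all tested genes moved by -1.92, Klrk1 was no longer called (0.39, edgeR adjusted p = 0.34) and Klrd1 was called lower (-2.15, edgeR adjusted p = 0.0011). Klrc1, Klrc2 and Klrg1 remained higher, with log2 fold changes of 3.82, 1.65 and 4.68.

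**Figure D2:**
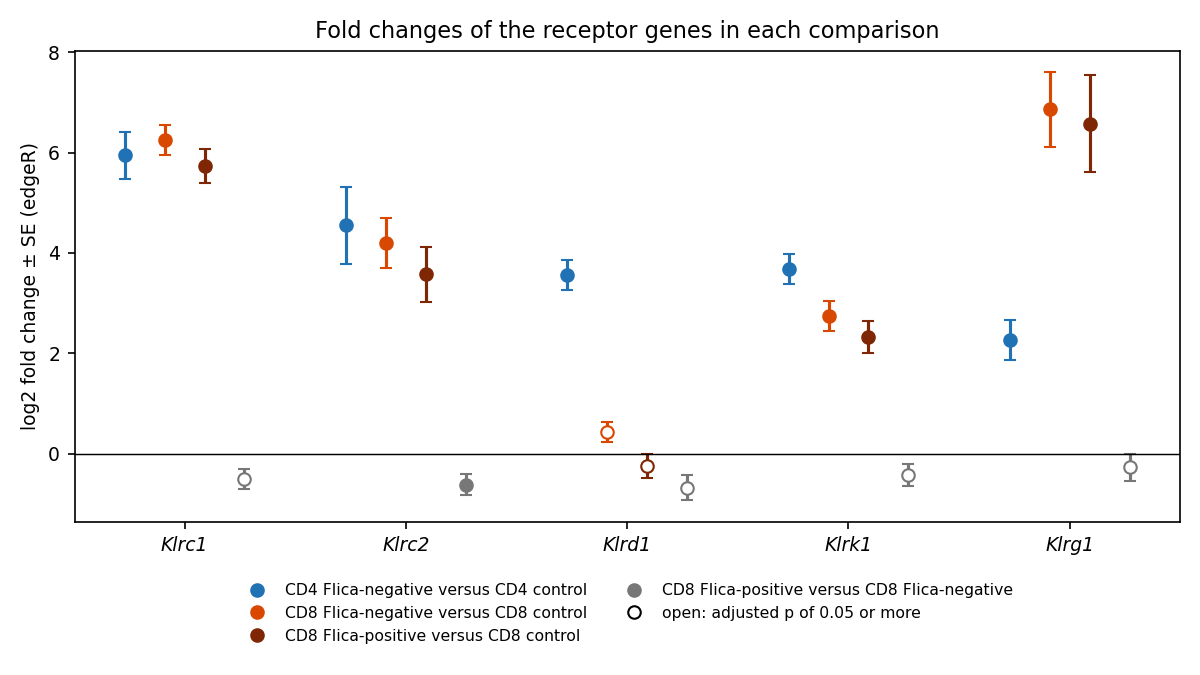
Log2 fold change (y axis) of each member (x axis) in 4 comparisons, as points with ± SE from edgeR. Filled points passed an adjusted p of 0.05. Among the comparisons with control Klrd1 passed only in CD4 cells, and differences within day 7 CD8 cells lie closest to 0 for Klrc1, Klrc2, Klrk1 and Klrg1.

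The direct comparison of the sorted CD8 populations asks what goes with the Flica signal. In the paper, most Flica-positive T cells also took up a dye that enters cells with damaged membranes, and Flica-negative cells hardly did. The populations may thus differ in cell death as well as in caspase-1 activity, and the part of either in the results was not tested. The means of all 5 members were lower with Flica than without, and in the fit without pairing by replicate number only Klrc2 passed the test, narrowly. Klrc2 was at 796 ± 80.5 normalized counts (SD, n = 3) in the former and 1222 ± 200.4 in the latter population, a log2 fold change of -0.62 (SE 0.21, edgeR adjusted p = 0.0498), and the libraries of the 2 groups did not overlap. The log2 fold change was -0.68 (SE 0.26, edgeR adjusted p = 0.071) for Klrd1 and -0.51 (SE 0.20, edgeR adjusted p = 0.074) for Klrc1. It was -0.43 (SE 0.21, edgeR adjusted p = 0.16) for Klrk1 and -0.27 (SE 0.27, edgeR adjusted p = 0.47) for Klrg1. Klrc1 and Klrk1 libraries did not overlap between the groups either, while those of Klrd1 and Klrg1 did. Of all 3337 genes tested, 27.4% were called higher and 3.51% lower in Flica-positive cells, 31.0% in all. The median log2 fold change was -0.51 for the members and 0.51 for all tested genes. T cell genes also leaned lower, with medians of -0.32 for 14 effector genes and -0.93 for 8 naive and memory-precursor genes. Of the effector genes 1 was called higher and 2 lower, and of the naive and memory-precursor genes 5 were called lower. Cd8a was at -0.37 and did not pass.

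How firmly these differences can be stated depended on the scaling, on single libraries and on pairing by replicate number. With replicate number as a block, Klrc1 and Klrd1 were called lower beside Klrc2 (edgeR adjusted p = 0.029 and 0.011). The Klrc2 call was lost when any library but CD8 Flica-negative replicate 3 was left out (edgeR adjusted p between 0.0828 and 0.221). Klrd1 became called without CD8 Flica-negative replicate 3 (-0.84, edgeR adjusted p = 0.048) and without CD8 Flica-positive replicate 1 (-0.87, edgeR adjusted p = 0.040). Scaling by TMM, with a median shift of -0.56 and 713 genes called higher and 427 lower in place of 916 and 117, called all 5 members lower, from -0.83 for Klrg1 to -1.27 for Klrd1 on the log2 scale. Neutrophil and macrophage markers moved with this comparison: all 10 listed neutrophil markers and 8 of 9 listed macrophage markers were higher in Flica-positive cells. The summed level of the macrophage markers was 18061 to 37490 normalized counts with Flica and 988 to 2071 without. No listed neutrophil or macrophage marker was at 0 in any Flica-positive library. The part of these cells in the lower levels of the receptor genes was not tested.

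**Figure D3:**
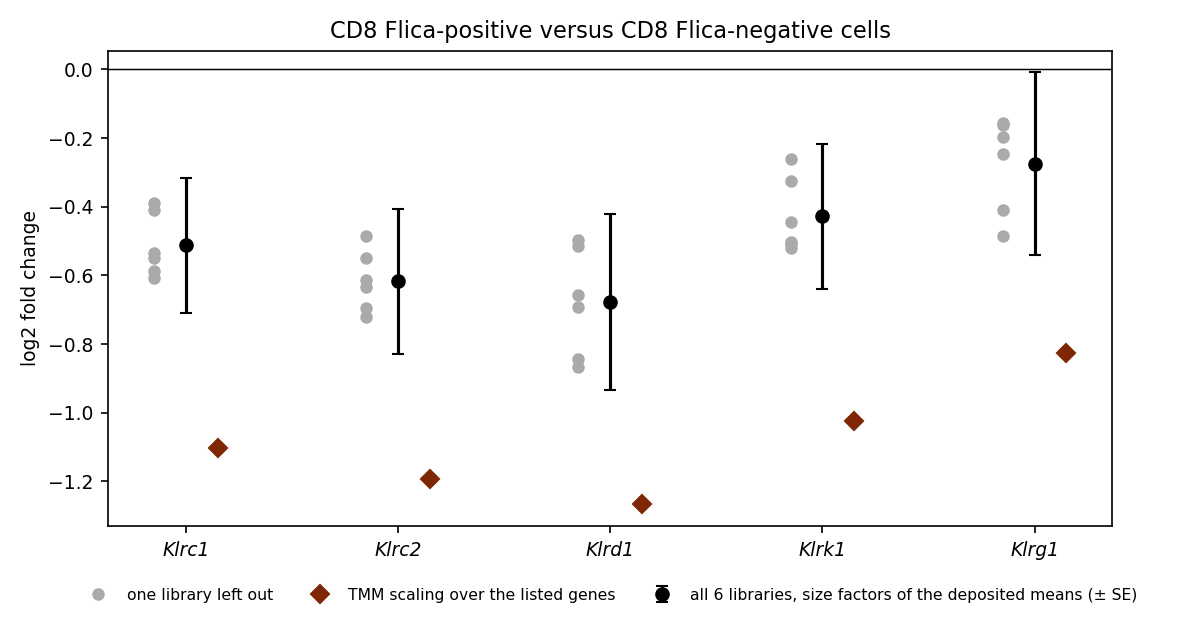
Log2 fold change of CD8 cells with over those without Flica signal (y axis) for each member (x axis), with all 6 libraries (black, ± SE), with single libraries left out (grey) and with TMM scaling (diamonds). All values lie below 0, and those with TMM scaling lie lowest.

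Ratios of members within a library do not depend on the scaling between libraries. There were 0.0617 ± 0.0250 reads of Klrc1 per read of Klrd1 in CD8 control, 3.44 ± 0.37 in CD8 Flica-negative and 3.89 ± 0.53 in CD8 Flica-positive libraries (SD, n = 3). The control values, 0.0329 to 0.0772, lay below all 6 day 7 values, 3.20 to 4.40, while the Flica-positive and Flica-negative values overlapped. The CD4 ratios were 0.389 ± 0.448 for control and 1.51 ± 0.15 for day 7, and CD4 control replicate 3, with 0.906, lay apart from 0.114 and 0.148. Klrk1 per Klrd1 was 0.285 ± 0.128 in CD8 control libraries, and on day 7 it was 1.41 ± 0.21 without and 1.73 ± 0.51 with Flica, with no overlap between control and day 7. In CD4 cells this ratio was 0.424 ± 0.202 in control and 0.399 ± 0.051 in Flica-negative libraries, with overlapping values. Of the reads on Klrc1 and Klrc2 together, Klrc1 took 65.1% ± 10.5 in CD8 control, 87.2% ± 2.1 in CD8 Flica-negative, 88.0% ± 0.93 in CD8 Flica-positive and 83.4% ± 1.4 in CD4 Flica-negative libraries. In CD4 control libraries this share ranged from 36.8% to 100% on few reads.

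**Figure D4:**
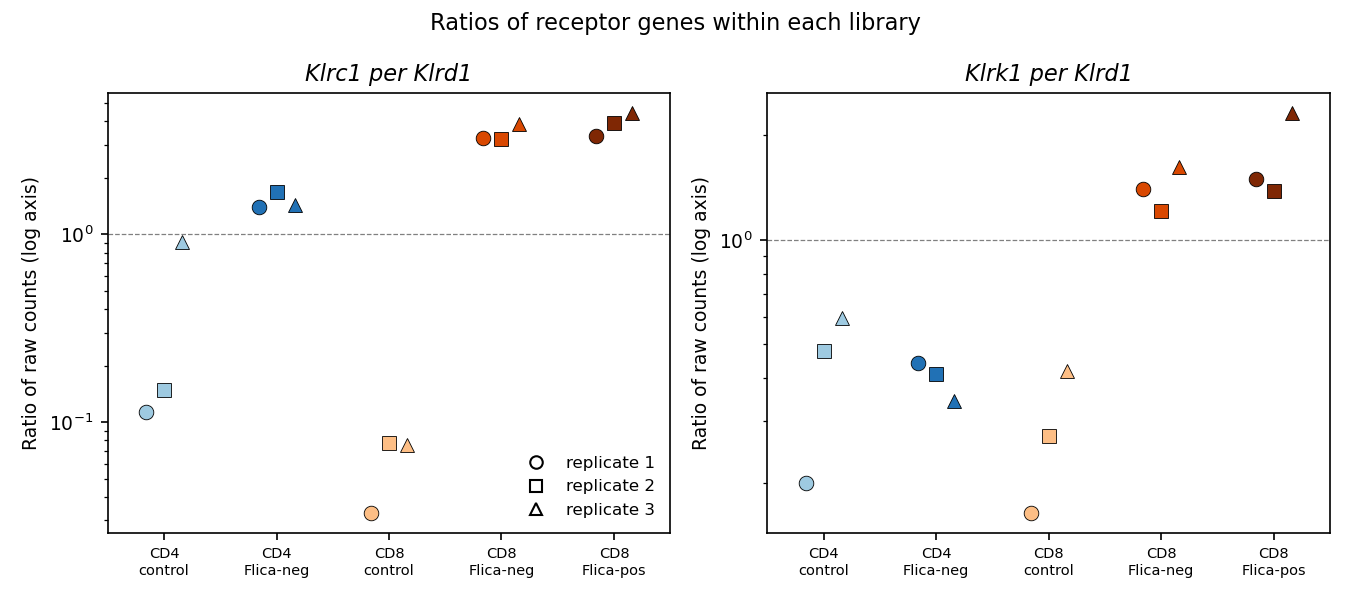
Reads of Klrc1 (left) and Klrk1 (right) per read of Klrd1 within each library (y axis, logarithmic), by group (x axis), with a symbol for each replicate. The dashed line marks a ratio of 1, which does not mean equal levels, since the genes differ in exon length. CD8 libraries move from below to above the line between control and day 7, and Klrk1 per Klrd1 stays below it in CD4 cells.

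Levels of different genes can be compared only per length, here as normalized counts per kb of annotated exon. The length joins the exons of all annotated transcripts of a gene, whether or not these cells express them. It is 7.183 kb for Klrk1, 5.812 kb for Klrc2 and 1.414 kb for Klrg1, so the order of genes depends on it. In CD8 Flica-negative cells Klrc1 had 4212 ± 641 normalized counts per kb (SD, n = 3) and Klrd1 1924 ± 443. Klrk1 with 478 ± 91.2 and Klrg1 with 390 ± 69.9 did not differ beyond their spread, and Klrc2 with 210 ± 34.5 was the lowest by this length. Before division by length Klrc2 stood above Klrg1, with 1222 against 551 normalized counts. Klrd1 led in CD8 control cells with 1432 ± 168 per kb, followed by Klrk1 with 71.3 ± 30.2 and Klrc1 with 55.4 ± 18.5, which did not differ beyond their spread. In CD4 Flica-negative cells Klrd1 (1316 ± 148 per kb) and Klrc1 (1280 ± 182 per kb) were level within their spread. CD4 control cells also had most of Klrd1, with 111.7 ± 47.5 per kb, and the other members were at 37.8 ± 16.5 or below.

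Across the 15 libraries the members varied together to different degrees. On log2(normalized count + 1), Pearson's r was 0.904 for Klrk1 and Klrc1, 0.861 for Klrc1 and Klrc2 and 0.203 for Klrg1 and Klrd1, with the other pairs between these. The libraries fall into 5 groups, so these values describe mainly the differences between groups. Among listed genes averaging 50 normalized counts or more, the pattern of Klrk1 was most like those of Ccl5 (r = 0.989), Wdr95 (0.986) and Dapk2 (0.972). Klrc1 was most like Dock5 (0.992), Ildr1 (0.985) and Lrrk1 (0.983), and Klrc2 most like Slc29a4 (0.979), Hsf4 (0.971) and Trip13 (0.964). For Klrd1 the nearest were Ehd1 (0.980), Dnajc15 (0.975) and Gm47079 (0.960), and for Klrg1 Ptms (0.961), Itih5 (0.958) and Stk39 (0.954). With a pseudocount of 10 in place of 1, Ccl5, Dock5 and Ehd1 stayed the nearest genes of Klrk1, Klrc1 and Klrd1.

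Of 24 other Klr genes, 13 have a row. Of the NKR-P1 (Klrb1) group Klrb1b, Klrb1c and Klrb1f are listed, and all 3 rose in CD8 and in CD4 Flica-negative cells against control. Against control, CD8 Flica-positive cells were called higher for Klrb1b and Klrb1c, and Klrb1f did not pass (log2 fold change 1.84, SE 0.81, edgeR adjusted p = 0.065). Klrb1c, which encodes NK1.1, went from 15.9 ± 5.84 normalized counts in CD8 control to 918 ± 71.4 in CD8 Flica-negative cells (SD, n = 3), a log2 fold change of 5.83 (SE 0.34, edgeR adjusted p = 1.0e-06). It rose less in CD4 cells, by 2.73 (SE 0.46, edgeR adjusted p = 4.6e-04), with an interaction of 3.11 on the log2 scale (edgeR adjusted p = 0.0012). Within day 7 CD8 cells it was lower with Flica, at 457 ± 30.1 (log2 fold change -1.01, SE 0.20, edgeR adjusted p = 0.0041). Klrb1b rose from 4.11 ± 5.67 to 664 ± 126.7 in CD8 Flica-negative cells (log2 fold change 7.34, SE 0.74, edgeR adjusted p = 2.2e-05). Both overlap exons of the predicted gene Gm44511, so their reads are uncertain. Klrc3, next to Klrc2 and sharing 7.34% of its 150-base stretches with it, rose from 3.27 ± 3.62 to 121.8 ± 27.0 (log2 fold change 5.15, SE 0.83, edgeR adjusted p = 4.5e-04).

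Genes of the Ly49 (Klra) group, inhibitory and activating receptors for MHC class I, were split in CD8 cells. Against control, CD8 Flica-negative cells had higher Klra2 (log2 fold change 4.33, SE 1.18, edgeR adjusted p = 0.0082), from at most 3 reads in a control library, and lower Klra6, Klra8, Klra9, Klra10 and the pseudogene Klra13-ps, while Klra3 (42.5 ± 17.2 against 64.6 ± 25.7 normalized counts) did not pass the test. Klra13-ps had 329, 595 and 838 normalized counts in CD8 control libraries and at most 5.33 in any CD8 day 7 library. The part of recipient cells in the day 7 levels of this group was not tested. Klra8 had 26.8 ± 8.28 in CD8 control cells and at most 1 read in any day 7 library, so it was at least 9.43-fold lower in CD8 Flica-negative cells, taking 3 counts per library as the floor. Klra2 and Klra17 were called higher in Flica-positive cells than in control cells, and also than in the other day 7 CD8 cells. Klra2 had 265 ± 113 there and 20.3 ± 7.10 in Flica-negative cells (log2 fold change 3.71, SE 0.52, edgeR adjusted p = 4.4e-04). Klra17 had 99.8 ± 28.5 and 4.14 ± 3.91 (log2 fold change 4.51, SE 0.96, edgeR adjusted p = 0.0054) and no read in any control or CD4 library. Beside these 2 genes, the neutrophil and macrophage marker sums given above were also highest in Flica-positive cells, and their part in the levels of Klra2 and Klra17 was not tested. Over the 12 tested genes of the wider family in CD8 Flica-negative against control cells, 6 were called higher and 5 lower, near the 42.3% and 33.5% of all tested genes, with a median log2 fold change of 0.82 beside 0.50 for all.

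**Figure D5:**
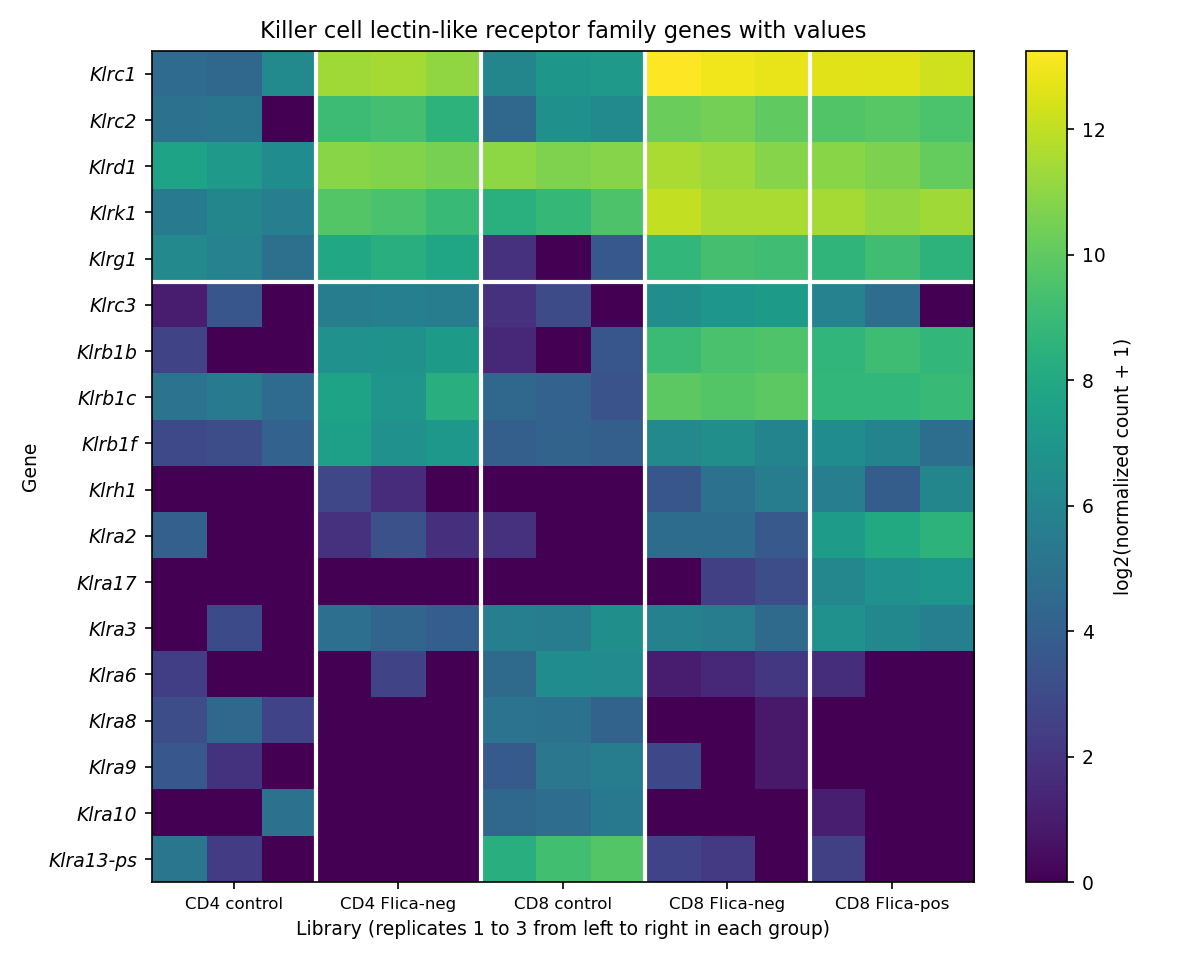
Level of the 5 members (top) and 13 other Klr genes (below the white line) as log2(normalized count + 1) in each library (columns, grouped by population). Within each lineage Klrb1b, Klrb1c, Klrc1, Klrc2, Klrk1 and Klrg1 are brighter on day 7, and Klrd1 is darkest in CD4 control cells. Klra6, Klra8, Klra9, Klra10 and Klra13-ps are brightest in CD8 control cells, and Klra2 and Klra17 are brightest in Flica-positive cells.

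NK cell markers were read because the members are best known from NK cells, while these libraries were sorted as T cells. Of 14 such markers 10 are listed. Ncr1, which encodes NKp46, averaged 20.7 ± 13.0 normalized counts in CD8 control, 2.35 ± 2.17 in CD8 Flica-negative, 13.7 ± 17.1 in CD8 Flica-positive and 0 in CD4 Flica-negative libraries. Between control and CD8 Flica-negative cells it fell (log2 fold change -3.11, SE 1.08, edgeR adjusted p = 0.025), on few counts. Klra8 was at or near 0 on day 7, as given above. Other NK markers rose in that comparison: Fcer1g, which encodes an adaptor chain, went from 19.5 ± 2.28 to 457 ± 50.7 normalized counts in CD8 Flica-negative cells, and Cd244a, which encodes the receptor 2B4, from 12.2 ± 10.7 to 388 ± 52.3. Itga2, Klrb1c and Gzma rose as well. In CD8 Flica-negative against control cells, 5 of the 10 NK markers were higher, 3 were lower and 2 did not pass, near the 42.3% and 33.5% of all tested genes. Their summed level was 20926 to 26058 in CD8 Flica-negative and 288 to 442 in CD8 control libraries, most of it Gzma, which cytotoxic T cells also express. The part of NK cells in the member results was not tested. Markers of gamma-delta and NKT cells (3 of 6 listed) summed to 102.9 to 175.5 normalized counts in CD8 control, 174.3 to 279.0 in CD8 Flica-negative and 188.8 to 362.3 in CD8 Flica-positive libraries. Trgc2 was higher and Trdc, the constant region of the delta chain, was lower in CD8 Flica-negative than in CD8 control cells, and the part of such cells in the member results was not tested. Of the erythroid markers 4 of 8 are listed and all 4 were higher in day 7 CD8 cells with Flica than in those without, but their sums overlapped, at 1003 to 80113 and 178 to 2580 normalized counts, and the highest belongs to Flica-positive replicate 1 alone. Of the dendritic cell markers 3 of 6 are listed (Flt3, Itgax and Xcr1). They summed to 6882 to 9805 normalized counts in CD8 Flica-negative, 5052 to 6504 in CD8 Flica-positive and 108.4 to 171.2 in CD8 control libraries. In CD4 cells the sums were 839 to 1504 in Flica-negative and 38.2 to 68.1 in control libraries. The part of dendritic cells in the member results was not tested.

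Few genes of the signalling chain of these receptors are listed. Of 18 adaptors and signalling proteins 3 have a row, and Hcst, which encodes the NKG2D adaptor DAP10, is not among them. Tyrobp, which encodes DAP12, had 30.8 ± 14.3 normalized counts in CD8 control, 110.8 ± 22.4 in CD8 Flica-negative and 1559 ± 653 in CD8 Flica-positive cells. Its log2 fold change between the latter groups was 3.81 (SE 0.37, edgeR adjusted p = 4.9e-05), while Klrc2 and Klrk1, whose products can signal through it, did not rise there. DAP12 is also abundant in myeloid cells, whose markers moved the same way, and their part in the Tyrobp level was not tested. In CD4 cells Tyrobp was at 20.5 ± 8.32 in control and 19.9 ± 9.63 in Flica-negative libraries (edgeR adjusted p = 0.96). Of 16 ligand genes only Raet1d and Cdh1 have a row, and the 1 tested, Cdh1, passed in no comparison.

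Genes of effector T cells moved in the same comparisons as the members. Of 15 such genes 14 are listed, and all 14 rose in CD8 Flica-negative and in CD8 Flica-positive cells against control and 13 rose in CD4 Flica-negative cells, beside 42.3%, 52.0% and 37.8% of all tested genes. Gzmb, which encodes granzyme B, went from 47.5 ± 6.20 to 40953 ± 5798 normalized counts in CD8 Flica-negative cells (log2 fold change 9.75, edgeR adjusted p = 7.0e-09). Cx3cr1, which like Klrg1 marks late effector CD8 T cells, rose by 8.26 in CD8 and by 4.96 in CD4 Flica-negative cells on the log2 scale. Tbx21, which encodes T-bet, rose by 3.59 and 5.06. Of 11 naive and memory-precursor genes 8 are listed, and all 8 fell in both CD8 comparisons with control and 7 fell in CD4 cells, beside 33.5%, 23.3% and 30.9% of all tested genes. Il7r, whose product is often read against KLRG1, fell by 1.35 on the log2 scale in CD8 Flica-negative cells (edgeR adjusted p = 1.2e-04), and in CD4 Flica-negative cells its log2 fold change was 0.20 (edgeR adjusted p = 0.19). All 6 listed B cell markers also fell in these comparisons: their summed level was 5517 to 8263 normalized counts in CD8 control and 356 to 424 in CD8 Flica-negative libraries, and their part in the member results was not tested.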

How the data were processed

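RNA from sorted T cells was sequenced in paired ends of 150 bases, and the submitters' processing notes name STAR 2.7.1a, DESeq2 and the build GRCm38. The counting tool and the annotation are not given in the sources used here. The authors deposited 4 tables of genes they had selected by adjusted p (below 0.05) and size of the log2 fold change (above 2 either way), with raw read counts for all 15 libraries. The deposited mean signal of each gene, its mean count after division by the authors' size factors, was used to recover those factors (largest relative error 6.1e-15). Columns with the authors' fold changes, test statistics and p-values, and 4 tables of enriched terms, were not used. Sample groups and replicate numbers follow the labels.

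Counts of the 2 groups compared were tested with edgeR 4.0.16 (quasi-likelihood test, low counts filtered by filterByExpr, R 4.3.3), with the Benjamini-Hochberg adjustment over all listed genes tested. A gene was called at an adjusted p below 0.05. The difference between lineages is the interaction term over 12 libraries. Since the authors selected the listed genes on these libraries, the p-values are not independent of that selection. A floor of 3 counts per library was used for genes near 0, and it covers counting error only. Alternatives were TMM scaling over the listed genes, no filter, DESeq2 1.42.0, a replicate block, 1 fit of all 15 libraries and each library left out. The test was also run on simulated counts in which 200 genes were changed 4-fold. It called 73 of the 151 changed genes that were tested for CD8 Flica-negative against control cells, and 68 of 181 for the interaction. It also called 5 and 7 unchanged genes. A gene that is not called may thus have changed by this much. Named genes are the members, the genes with a row from fixed lists (family, adaptors, ligands, effector, naive and cell type markers) and the 3 genes most like each member. The members and lists were chosen with earlier results of these data known, and 1 gene each of the naive and the gamma-delta and NKT lists is not reported here. Positions, exon lengths and shared stretches come from GENCODE M21, and promoter sequences from RefSeq. Tables and plots were made with Python 3.11.15, pandas 2.3.3, numpy 2.4.6 and matplotlib 3.10.9.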

Additional observations from a re-analysis of the deposited data

Results flagged for a closer look

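The interaction of lineage and day, the change in CD8 Flica-negative cells minus the change in CD4 Flica-negative cells, passed an edgeR adjusted p of 0.05 for 2 members, 1 other gene of the family and 17 genes of the effector and naive lists. Among the members, Klrg1 differed by 4.60 on the log2 scale and Klrd1 by -3.14. Klrb1c, which encodes NK1.1, differed by 3.11. Of the effector genes, Cx3cr1 (3.30), Zeb2 (1.72), Prdm1 (2.17), Gzma (3.17), Gzmb (1.49), Gzmk (4.79), Prf1 (1.30), Fasl (6.19) and Itgam (3.76) rose more in CD8 cells, and Tbx21 (-1.48) and Il2rb (-1.45) rose less. Of the naive and memory-precursor genes, the change in CD8 cells was the lower for Il7r (-1.55), Ccr7 (-2.42), Tcf7 (-1.97), Bach2 (-1.61), Id3 (-1.89) and Satb1 (-0.70). In all, 11.3% of the 4145 genes tested passed in either direction. Groups of 3 libraries are too small for a test of single outlying libraries.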

How the results depend on the processing

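Of 415 member fold changes under alternatives, 373 kept their direction and their side of the threshold, 22 were no longer called, 16 became called and 4 changed direction. Klrd1 in CD8 Flica-negative against control cells was -0.019 with TMM scaling. The interaction was -0.61 for Klrc1 and 0.26 for Klrc2 without CD4 control replicate 3, and 0.08 for Klrc2 without CD8 control replicate 2; with single libraries left out it ranged from -0.61 to 0.62 for Klrc1 and from -0.90 to 0.26 for Klrc2. In Flica-positive against Flica-negative CD8 cells, 1 member was called in the main test, against 5 with TMM scaling, 0 with no filter, 3 with DESeq2, 3 with the replicate block, 0 in the fit of all 15 libraries and 0 to 2 with a library left out. In CD8 against CD4 Flica-negative cells the fit of all 15 libraries called 2 members in place of 5. The cause of these changes was not tested. TMM takes most listed genes as unchanged, while they were selected for change.

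The replicate numbers were taken not to pair the libraries, since same-numbered libraries correlated in their deviations from the group means by 0.170, 0.0466 and 0.168 across the day 7 CD8 populations, and no comparison had all 3 values above 0.1. Every library there correlated best with its own number, as in the 2 comparisons between lineages, which is a hint of pairing. Between day 7 and control no library did so. Same-numbered libraries of a day also share a prefix in their column headers. The paper describes sorting splenocytes of several mice with aGvHD into these populations. No source used here states that a replicate number marks a shared sort, so pairing remains possible. With the block, Klrc1 and Klrd1 were called lower in Flica-positive cells beside Klrc2 (edgeR adjusted p = 0.029 and 0.011). Also with the block, Klrg1 was no longer called and Klrc1 became called between the controls (edgeR adjusted p = 0.061 and 0.040), and no other member call changed. The depth of the libraries is unknown, since only listed genes have counts. Genes near 0 in controls, such as Klrg1 in CD8 cells, have the least certain fold changes.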
